A study of Glycine max with 4 samples.

Results

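The strong narrow GmWRI1 regions were short stretches of the soybean genome at which both chromatin immunoprecipitation sequencing (ChIP-Seq) replicates held a high and compact peak. Peaks of the 2 replicates that shared at least 1 bp were merged, and a merged region was kept when it lay on chromosomes 1 to 20, was narrower than 1500 bp, and had a strongest fold enrichment of at least 20 in each replicate. This rule kept 439 of the 15102 regions shared by both replicates on the chromosomes (2.91%), out of 26116 regions in the lists as a whole. In all, 648 shared regions (4.29%) reached 20 fold in both replicates, and the other 209 of them were 1500 bp or wider and are called strong wide regions here. The narrow regions whose weaker replicate lay between 10 and 20 fold numbered 1055, and those under 10 fold numbered 12446. Fold enrichment is the number of ChIP reads piled up at the summit, the highest point of a peak, divided by the number of background reads expected there, with 1 added to each.

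The study profiled GmWRI1 in early maturation (em) stage embryos of soybean, *Glycine max* cultivar Williams 82, dissected from seeds of greenhouse plants. Embryos were crosslinked with formaldehyde, and chromatin was precipitated with antibodies that recognize both GmWRI1-A (Glyma.08G227700) and GmWRI1-B, so that the factors cannot be told apart. The group comprised 2 ChIP libraries, with 2 input libraries of non-precipitated chromatin that enter the values only as the background of the authors' peak calls. With 2 libraries of a single group and regions selected on their fold, no comparison between conditions was possible and no p-value is given: fold, width, reads and background are descriptions of what the rule selected.

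WRINKLED1 (WRI1) proteins are plant transcription factors with AP2-type DNA-binding domains. In developing seeds they activate genes of late glycolysis and plastid fatty acid synthesis, and so direct carbon from sugars toward storage oil. A transcription factor that contacts DNA at one site is expected to give a peak whose summit lies near that site, whereas several neighboring sites can merge into a wider peak, which is why summit position and width are described together.

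The rule set the level of the members, and these values are given only to describe them. Fold enrichment ranged from 20.01 to 49.9 with a median of 27.4 in replicate 1, and from 20.03 to 73.1 with a median of 32.9 in replicate 2. Merged width ranged from 482 to 1484 bp with a median of 812 bp. The −log10 q value of the peaks was at least 152 in replicate 1 and 99.3 in replicate 2. Each of the 691 peaks at 20 fold in replicate 1, and each of the 864 on the chromosomes in replicate 2, lay in a shared region, and they marked 4.58% and 5.71% of the shared regions. The limits cut through a continuum, as the plot of fold enrichment in both replicates shows. Just inside the fold limit lay a region on chromosome 6 (19057407 to 19058074) with 20.01 and 22.3 fold in replicates 1 and 2, the region of Glyma.11G254800 with 20.02 and 24.1 fold, and a region on chromosome 17 (2258535 to 2259108) with 20.03 and 20.8 fold. Just outside it lay the regions of Glyma.05G162300 with 20.97 and 19.99 fold, Glyma.12G030000 with 21.5 and 19.98 fold, and Glyma.13G177300 with 19.98 and 23.6 fold. At the width limit, the regions of Glyma.01G008400 and Glyma.02G006200 were both 1484 bp wide and were kept, whereas the region of Glyma.01G159400 was 1500 bp wide and was not.

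**Figure D1:**
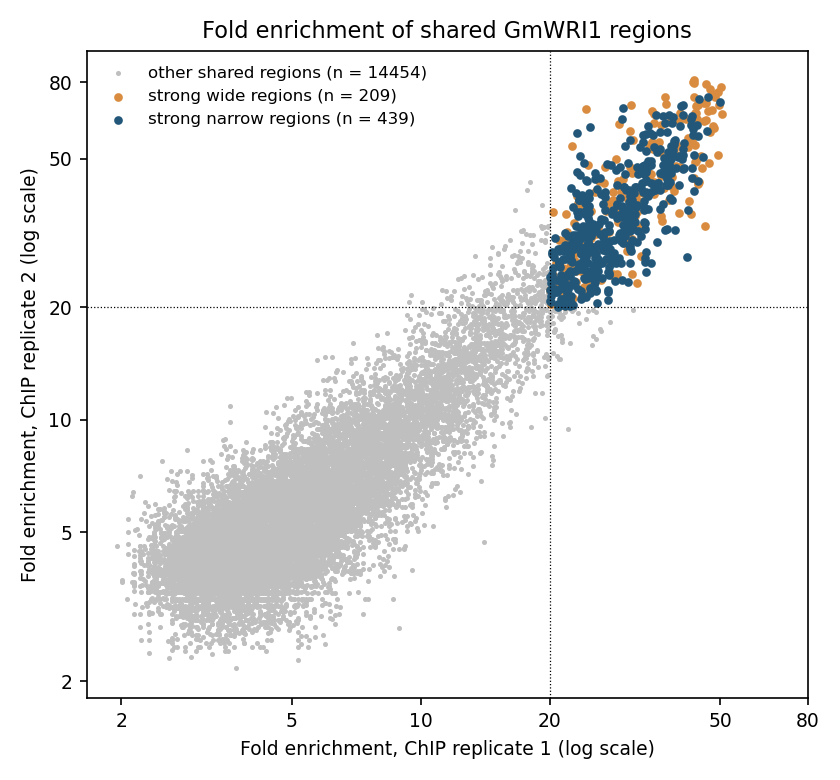
Fold enrichment in ChIP replicate 1 (x axis, log scale) and replicate 2 (y axis, log scale) of the 15102 shared regions on chromosomes 1 to 20. Points are regions, dotted lines mark 20 fold, and the 439 strong narrow regions are the upper end of a continuous cloud, intermixed with the 209 strong wide regions.

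The replicates ranked the members alike in reads and less so in background. Reads at the summit, recovered from the deposited fold and −log10 p values, ranged from 163 to 411 with a median of 265 in replicate 1 and from 101 to 364 with a median of 191 in replicate 2. Replicate 2 had fewer summit reads than replicate 1 at all 439 members, with a median ratio of 0.734, and 0.887% of all shared regions had more reads in replicate 2. Its background was also lower, with a median of 4.50 reads against 8.11 in replicate 1, at 438 of 439 members (99.8%, against 99.2% of all shared regions). The background thus differed by more than the reads did, and fold was higher in replicate 2 at 361 members (82.2%, against 68.4% of all shared regions) by a median ratio of 1.20. Across the 439 members, summit reads of the replicates correlated with r = 0.972 and rho = 0.968, fold with r = 0.749 and rho = 0.733, and background with r = 0.213 and rho = 0.227. The points share their libraries and were cut off at 20 fold, so these coefficients describe the members only.

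Regions at which fold differed most between replicates had unequal backgrounds. At Glyma.16G018300, annotated as pyruvate dehydrogenase E1 alpha, fold was 23.1 in replicate 1 and 58.6 in replicate 2. Reads there were 379 and 303, and the background was 15.4 and 4.19. The kelch repeat gene Glyma.13G360600 had 24.9 and 60.7 fold on 384 and 340 reads over backgrounds of 14.5 and 4.61. In the opposite direction, the region of Glyma.06G181600, described as a glucose-6-phosphate/phosphate translocator-related protein, had 41.7 fold in replicate 1 and 27.3 in replicate 2, and it was the member with the highest background in replicate 2, 9.51 against 7.17 in replicate 1. Reads at these 3 regions were higher in replicate 1, as at all 439 members. Since fold is calculated from reads and background, unequal backgrounds at such regions follow in part by construction. The part of the input libraries in these backgrounds was not tested.

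The summit reads also approached an upper limit of each list. The highest summit in replicate 1 held 420 reads and the highest in replicate 2 held 388, each 2.00 times the shortest peak of its list (210 and 194 bp). Within 10% of that highest value lay 33 members in replicate 1 (7.52%, against 0.344% of all peaks) and 8 in replicate 2 (1.82%, against 0.205%). Members were selected on fold, which is calculated from these reads, so their higher shares follow from the rule. Together with the lowest background of each list, these limits correspond to 51.5 fold in replicate 1 and 81.1 fold in replicate 2, and the strongest members reached 49.9 and 73.1. The part of this limit in the order of the strongest members was not tested.

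The summits of the replicates lay at nearly the same base pair. Their median distance was 7 bp, with quartiles of 3 and 14 bp, in regions that were a median of 812 bp wide. Summits were at most 10 bp apart in 281 members (64.0%, against 18.5% of all shared regions) and at most 20 bp apart in 388 (88.4%, against 32.1%). Within 50 bp were 426 members (97.0%, against 56.6%). All but 3 members (99.3%) had summits within 100 bp, as did 76.1% of all shared regions, and 17 had identical summits (3.87%, against 0.987%). Peak borders agreed less well than summits: the starts of the strongest peaks differed by a median of 37 bp and their ends by a median of 39 bp.

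Among narrow regions this agreement was closer at higher fold, and it did not follow width alone. Strong wide regions, selected at the same fold, had a median summit distance of 17 bp, and 54.1% of them were within 20 bp. A single peak in each replicate made up 71.3% of them, against 98.6% of the members. Narrow regions of 10 to 20 fold had a median of 13 bp with 64.2% within 20 bp, and narrow regions under 10 fold had a median of 46 bp. Their median widths were 677 and 500 bp. Among the members themselves, ordered by mean fold and divided into 3 equal groups, the median distance was 9 bp in the weakest, 8 bp in the middle and 6 bp in the strongest group, and the share within 20 bp was 81.5%, 89.7% and 93.9%. Median width rose across these groups, with 718, 791.5 and 869 bp. In the plot of summit distance, the curve of the members lies above those of the other classes at 10, 20, 50 and 100 bp. Since weaker regions also hold fewer reads (a median of 129 and 83 at the summits of the 10 to 20 fold regions), fold and read number cannot be told apart here.

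**Figure D2:**
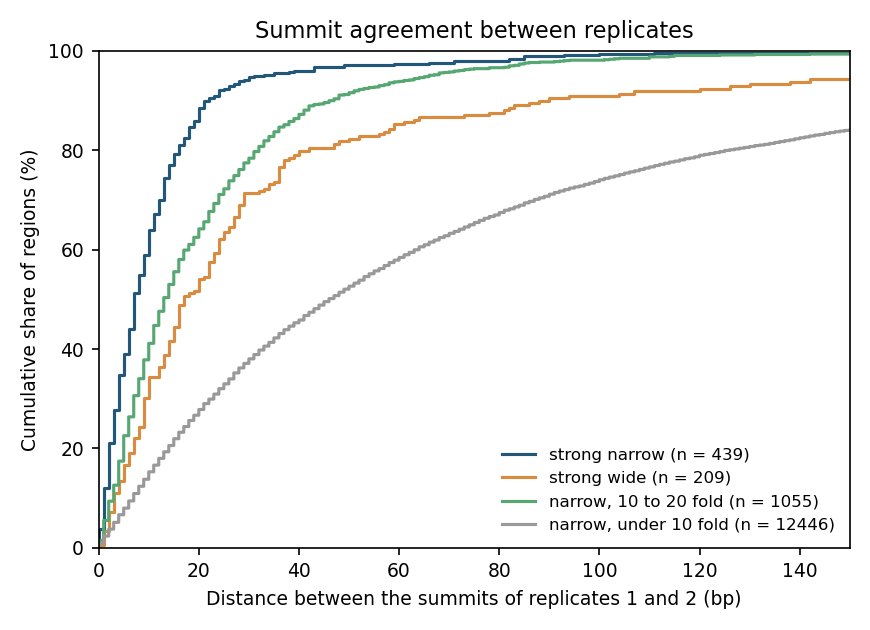
Cumulative share of regions (y axis, %) by the distance between the summits of replicates 1 and 2 (x axis, bp, shown to 150 bp) for 4 classes of shared regions. Strong narrow regions reach 88.4% at 20 bp, narrow regions of 10 to 20 fold 64.2% and strong wide regions 54.1%.

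The members with summits over 100 bp apart were among the wider members. A region on chromosome 5 that was not linked to a gene was 1430 bp wide with summits 185 bp apart, and its fold was 27.7 and 28.7. The region of Glyma.08G337900, which encodes a BTB/POZ domain-containing protein, was 1416 bp wide with summits 172 bp apart and had 31.5 and 37.5 fold. The other, on chromosome 16, was 1063 bp wide with summits 111 bp apart and had 21.8 and 20.1 fold. All 3 were wider than the upper quartile of the members, 942.5 bp.

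Summits lay near the middle of the peaks. As a position from the start (0%) to the end (100%) of the peak, the summit had a median of 50% in replicate 1 (quartiles 43.8% and 55.6%) and 50.4% in replicate 2 (quartiles 44.7% and 55.7%). The median distance of the summit from the peak centre was 47 and 40 bp, against 47.5 and 41.25 bp over all shared regions. Peaks of all shared regions were shorter, with medians of 495 and 412 bp against 766 and 739 bp. In bp the members were thus about as central, and the shares below are relative to peak length. The summit fell in the central part of the peak, between 33.3% and 66.7% of its length, in both replicates at 383 members (87.2%, against 53.4% of all shared regions). The share was 80.9% in narrow regions of 10 to 20 fold and 39.2% in strong wide regions. A single peak in each replicate made up 433 of the 439 members (98.6%), as it did 98.1% of the narrow regions of 10 to 20 fold and 90.8% of all shared regions.

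Summits that were off-centre in both replicates lay on the same side, which their closeness made likely. The summit was in the central part at 399 members in replicate 1, at 403 in replicate 2 and at 383 in both. At 20 members (4.56%, against 13.4% of all shared regions and 7.39% of narrow regions of 10 to 20 fold) the summit lay outside the central part in both, and at all 20 it was on the same side. The peaks overlapped and the summits of members were at most 185 bp apart. That left little room for opposite sides, so the side is a description only. The region of *HIGH MOBILITY GROUP B1* homolog Glyma.01G116000, which encodes a chromatin protein, was 1399 bp wide and had its summit at 21.2% of the replicate 1 peak and 26.1% of the replicate 2 peak. At the other end, Glyma.02G203400, a BTB/POZ and WD40-type repeat gene, had a region 1452 bp wide with summits at 79.4% and 82.1%, only 2 bp apart. The class was not limited to wide members: Glyma.14G211800, whose function is unknown, had a region of 813 bp with summits at 25.6% and 23.4%. Of the 78 narrow regions of 10 to 20 fold that were off-centre in both replicates, 78 were also on the same side, and of the 86 strong wide ones 85 were. Among all other shared regions, whose summits lay further apart (median 42 bp), the number was 1387 of 2004. Across members, summit position correlated between replicates with r = 0.746 and rho = 0.716 (n = 439), where the peaks being compared overlap by construction.

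**Figure D3:**
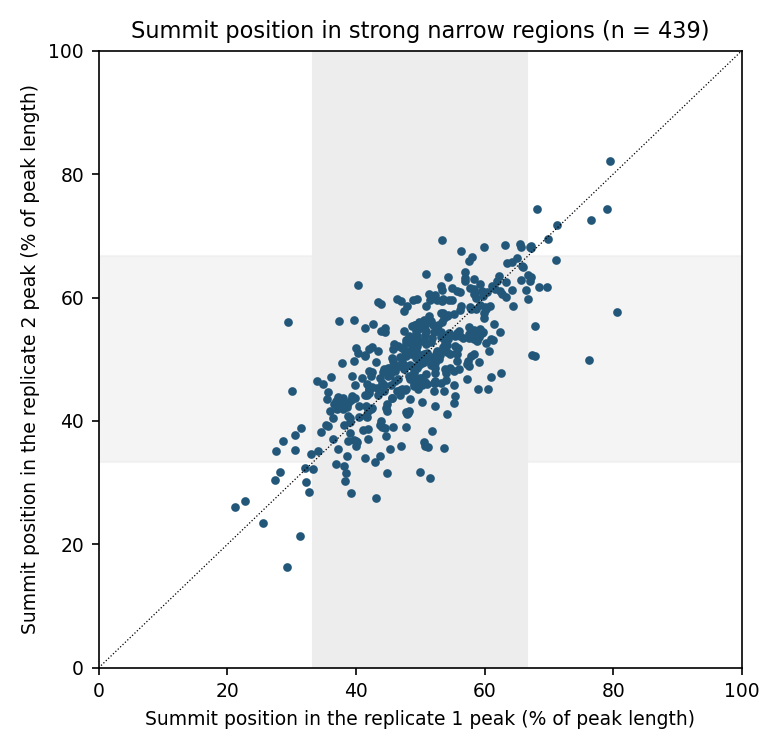
Summit position in the replicate 1 peak (x axis) and the replicate 2 peak (y axis), in % of peak length, for the 439 strong narrow regions. Points are regions, gray bands mark the central part of each peak and the dotted line equal positions. Most points fall where the bands cross, and the 20 regions outside both bands lie in the lower left or upper right corner.

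Another member lay within 10 kb of 10 members (2.28%). The nearest other member was a median of 395 kb away, with quartiles of 160 and 1086 kb. Spread evenly over the span of the peaks, members would lie 2157 kb apart. Random placement, which gives closer neighbors than even spacing, was not computed. For all distances between regions, each region was placed at the mean of its 2 summits. Within 100 kb of 76 members (17.3%) lay another member, and the 10 members with another within 10 kb formed 5 pairs. The closest pair, 877.5 bp apart, was linked to 1 gene, Glyma.05G129600, annotated as ketoacyl-ACP synthase I, a condensing enzyme of fatty acid elongation, with 38.2 and 39.2 fold at one region and 37.7 and 48.3 at the other. Outside lipid synthesis, Glyma.04G203200, a homolog of *RESPIRATORY BURST OXIDASE HOMOLOGUE D*, which encodes a superoxide-producing enzyme of the plasma membrane, held 2 members 5661 bp apart with 30.9 and 32.1 fold and 26.6 and 31.3 fold. In 2 more pairs the members were linked to neighboring genes of the same family. The DUF538 genes Glyma.10G017400 and Glyma.10G017500 had 35.6 and 52.0 fold at one gene and 22.5 and 26.4 at the other, and the VQ motif genes Glyma.06G104400 and Glyma.06G104500 had 34.9 and 42.9 fold at one and 23.4 and 26.1 at the other. In both, the second gene was the weaker in each replicate. The remaining pair, 1939.5 bp apart, joined the region of a pyruvate dehydrogenase E1 beta gene, Glyma.05G141000, and a region without a linked gene.

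Shared regions of any strength were also found beside the members. The nearest of them was a median of 11.2 kb away, against 9.24 kb for the other shared regions. It lay within 2 kb at 50 members (11.4%, against 19.2% of all shared regions), within 5 kb at 24.4% (against 35.2%) and within 10 kb at 195 (44.4%, against 51.8%). The shares of the narrow regions of 10 to 20 fold were close to those of the members, with 11.4%, 26.4% and 44.7% within 2, 5 and 10 kb. The neighbors within 10 kb had a median fold of 4.85 in replicate 1 and 5.27 in replicate 2. Of these 195 neighbors, 7 were members themselves (3.59%, against 2.91% of all shared regions) and 5 were strong wide regions (2.56%, against 1.38%).

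Every chromosome held members. Counts ranged from 7 on chromosome 16 to 28 on chromosome 17 with a median of 22.5, as the bar chart by chromosome shows. This made 4.64 members per 10 Mb over the 947 Mb spanned by the peaks of both lists. As a share of the shared regions of each chromosome, they ranged from 1.34% on chromosome 16 (7 of 524, 95% Wilson interval 0.649 to 2.73%) to 3.96% on chromosome 9 (27 of 682, 2.73 to 5.70%). Chromosome 13 had the most shared regions, 1103, of which 18 were members (1.63%, 1.03 to 2.56%). The intervals of the other 18 chromosomes included the overall 2.91%. These intervals cover counting error only and treat regions as independent.

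Along the chromosomes, members followed the other shared regions. When the span of each chromosome was divided into 5 equal parts, these held 142, 65, 22, 52 and 158 members. The outermost parts together held 300 (68.3%, against 69.8% of all shared regions) and the central part 22 (5.01%, against 5.56%). Soybean genes are themselves concentrated toward chromosome ends, and the gene density around the members was not analysed here.

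**Figure D4:**
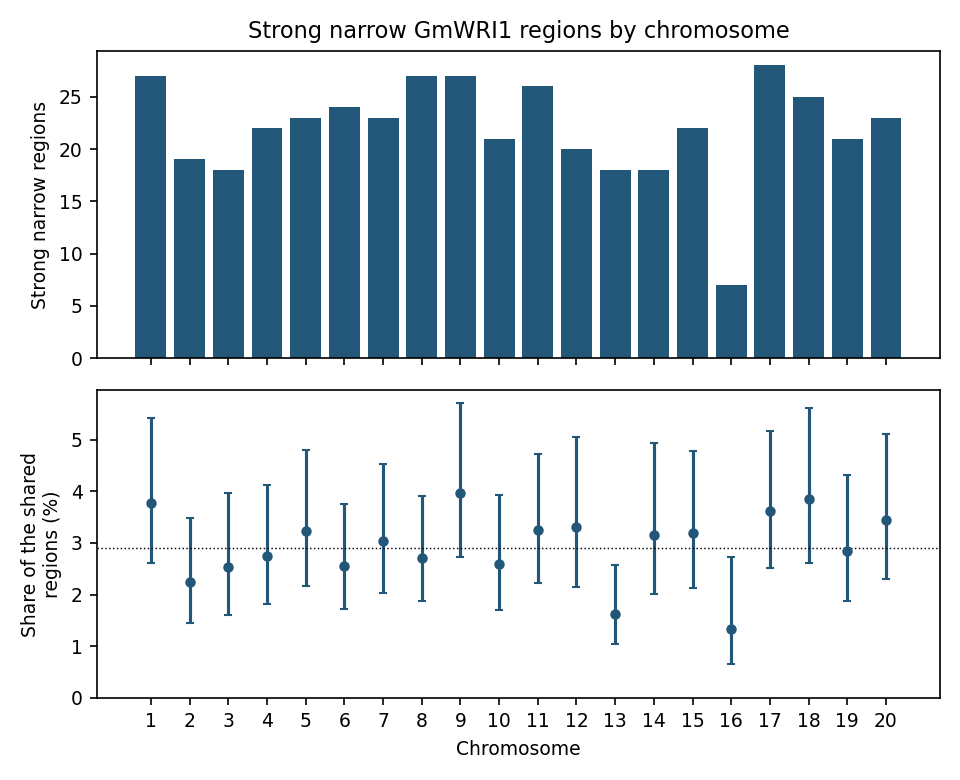
Number of strong narrow regions (upper panel, bars) and their share of all shared regions (lower panel, points in %) on chromosomes 1 to 20. Error bars are 95% Wilson intervals and the dotted line marks the overall share of 2.91%, which lies outside the intervals of chromosomes 13 and 16 only.

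Members were given a gene when a summit lay within 100 bp of a peak position that the study's tables of GmWRI1 targets assign to a gene. These tables were available in shortened form, mostly without chromosomes 17 to 20. The gene names, and also the gene classes, functional groups and homolog pairs below, rest on these incomplete tables. A gene was linked to 284 members (64.7%): 75.1% of the 342 on chromosomes 1 to 16 and 27.8% of the 97 on chromosomes 17 to 20. The match was close, with a median of 2 bp between summit and listed position. Of the linked members, 63 had a gene of fatty acid and triacylglycerol biosynthesis (FAT genes) and 221 (77.8%) had only genes outside that list. The latter share was 84.2% at a fold limit of 15 and 66.7% at a limit of 30. Its value over all shared regions was not analysed here. One of the tables lists sites of FAT genes only, so FAT and other genes may not be linked equally often. Whether a summit lay in an exon, intron or UTR was not analysed here. A link gives the gene at the region, not a change in its mRNA.

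Members linked only to genes outside the FAT list had a lower median fold than those of FAT genes and the same median summit distance. All were cut off at 20 fold by the rule, so this describes the members only. Median fold was 26.8 and 31.8 in replicates 1 and 2 for the 221 regions outside the FAT list, 32.9 and 41.3 for the 63 FAT regions, and 26.4 and 31.1 for the 155 without a link. Median background was 7.93 and 4.38 reads outside the FAT list and 8.69 and 4.76 at FAT regions. The median summit distance was 7 bp in all 3 classes. Among the 15 strongest members by mean rank of fold, 7 had FAT genes, 4 had only other genes and 4 had no link. Among the strongest 50 the numbers were 15, 19 and 16. No such split was made for all shared regions.

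The strongest member of all was not at a FAT gene. It lay at Glyma.13G060300, a homolog of *CDC2C*, which encodes a kinase related to cyclin-dependent kinases, on chromosome 13 from 15759024 to 15760403 in coordinates of the Wm82.a2.v1 assembly used by the study's annotation. Fold was 49.9 in replicate 1 and 70.7 in replicate 2, on 407 and 355 summit reads, with summits 11 bp apart. The next was Glyma.09G216700, a DNAse I-like gene on chromosome 9 (43985109 to 43985981), with 46.8 and 73.1 fold on 411 and 364 reads and summits 4 bp apart. Place 6 was Glyma.12G056900, a homolog of the zinc transporter gene *ZTP29*, with 40.9 and 69.8 fold in a region of 700 bp on chromosome 12 (4127615 to 4128314). Place 10 was Glyma.08G142700, a homolog of *CPISCA*, whose product takes part in chloroplast iron-sulfur cluster assembly, with 44.4 and 57.4 fold on chromosome 8 (10857511 to 10858363). The 4 unlinked members among the strongest 15 lay on chromosomes 17, 1, 10 and 9 and had between 40.9 and 43.1 fold in replicate 1.

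The other strong regions outside the FAT list were at genes of diverse roles, and those named next each had a higher fold in replicate 2. The genes at 3 of them have no description: Glyma.17G131500 with 40.3 and 61.1 fold, Glyma.06G297400 with 40.7 and 49.8 fold, and Glyma.17G017200 with 39.99 and 51.0 fold. Glyma.09G260900, a cytochrome P450 gene of the CYP71A type, had 38.5 and 62.3 fold. Glyma.03G232800, a homolog of *IMPA-2*, which encodes an adaptor of nuclear protein import, had 37.9 and 65.5 fold. Glyma.15G209300, a homolog of *PGIP1*, whose product inhibits cell wall-degrading polygalacturonases of fungi, had 39.3 and 56.1 fold. Glyma.11G105500 resembles *TOC132*, a receptor for protein import into chloroplasts, and its region, shared with the pentatricopeptide repeat gene Glyma.11G105600, had 38.6 and 52.1 fold. Glyma.09G034400, a homolog of the cochaperone gene *PREFOLDIN 3*, had 37.0 and 62.2 fold with its summit toward the end of the peak, at 65.6% and 68.6%. Glyma.07G265900, a homolog of the vacuolar malate transporter gene *TDT*, had 38.4 and 51.3 fold in a region also linked to the F-box gene Glyma.07G265800, and Glyma.11G081300, whose function is unknown, had 38.9 and 54.6 fold. In the plot of the strongest regions, both points of every gene shown lie far above the 20 fold limit.

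**Figure D5:**
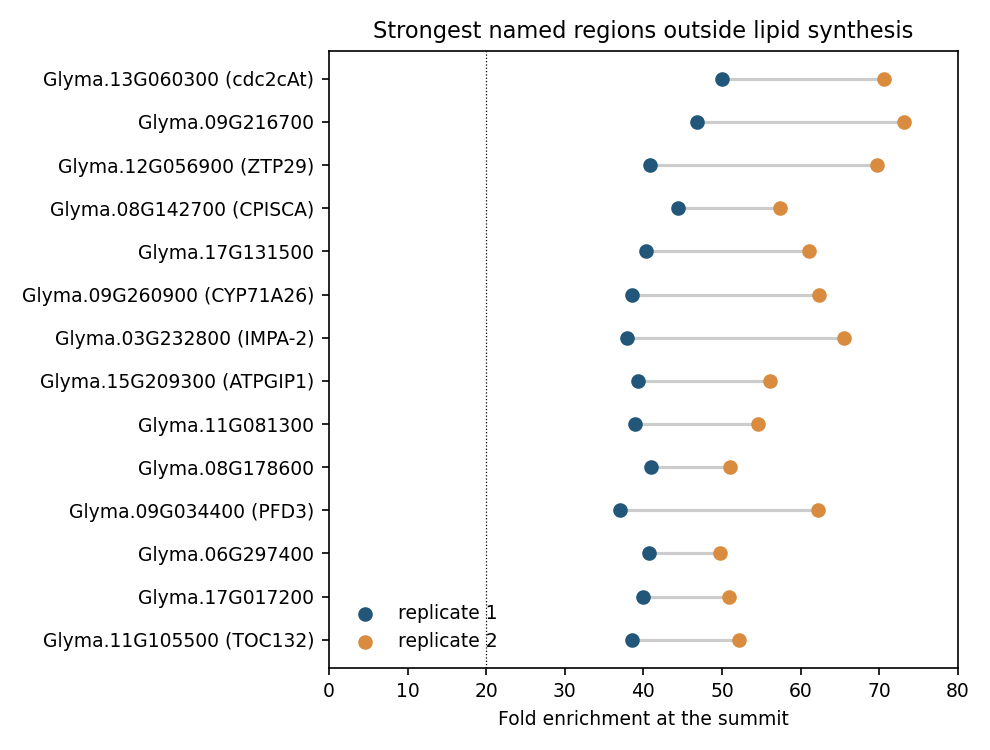
Fold enrichment at the summit (x axis) in ChIP replicate 1 (blue) and replicate 2 (orange) for the strongest regions linked only to genes outside the FAT list (y axis, ordered by mean rank). The dotted line marks 20 fold. Replicate 2 is higher at every region shown, from 49.8 against 40.7 at Glyma.06G297400 to 69.8 against 40.9 at Glyma.12G056900.

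Grouped by words in the descriptions of their Arabidopsis homologs, most of the 221 regions fell into no functional group. A description outside the groups used was found at 92 (41.6%, against 28.2% of the 3093 such regions among all shared regions). A gene of unknown function was found at 33 (14.9%, against 8.54%) and a gene without description at 24 (10.9%, against 39.5%). Descriptions were thus missing less often among the members, and the shares that follow are of described regions only. The groups count word matches only, so that genes whose descriptions lack the words are missed, such as the kinase gene Glyma.13G060300 named above. Transcription regulators matched at 17 members, 8.63% of the 197 with a description against 8.28% of the 1871 such regions among all shared regions, with median fold of 26.6 and 30.8. The strongest was the basic helix-loop-helix gene Glyma.10G261100 with 34.9 and 57.7 fold. Next was Glyma.07G268100, a homolog of *NF-YB6*, also called *LEC1-LIKE*, a nuclear factor Y subunit of embryo maturation, with 35.2 and 41.1 fold, 320 and 225 summit reads, and summits 5 bp apart on chromosome 7 (44130625 to 44131307). The MADS-box gene Glyma.08G095300 had 26.2 and 44.4 fold. Weaker members of the group came from the WRKY, GATA, GRAS, MYB and AP2/B3 families, down to 20.2 and 24.6 fold at Glyma.13G102000, a homolog of *WRKY11*.

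Descriptions of kinases and phosphatases matched at 14 members (7.11%, against 6.04%), with median fold of 25.1 and 31.1. The strongest match was Glyma.10G221200 with 30.8 and 56.1 fold, and its summits were 49 bp apart, the most among these matches. Its homolog AT1G74320 is described only as a protein kinase superfamily protein, which does not give its substrate. The AGC kinase gene Glyma.09G066300 had 31.1 and 35.1 fold. The protein phosphatase 2C gene Glyma.03G233300 was one of the members with a lower fold in replicate 2, 29.9 against 35.5, although its summits were 3 bp apart. Hormone words matched at 2 members (1.02%, against 1.39%). Glyma.14G157400, a homolog of the gibberellin biosynthesis gene *GA20OX3*, had 30.0 and 31.1 fold with summits 1 bp apart, and Glyma.02G065300, a homolog of the auxin receptor gene *AFB3*, had 23.9 and 21.3 fold. A gibberellin biosynthesis gene outside the matches, the *GA1* homolog Glyma.03G154700, had 34.4 and 43.1 fold.

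Lipid words matched at 9 members with genes outside the FAT list (4.57%, against 2.89%), with median fold of 26.1 and 34.4 and a median summit distance of 2 bp. Acyl-CoA binding proteins, which carry and buffer activated fatty acids, accounted for 4 of them. The *ACBP2* homologs Glyma.06G131200 and Glyma.04G233600 had 41.2 and 47.1 fold and 25.5 and 44.2 fold. The *ACBP6* homologs Glyma.04G122900 and Glyma.09G214500 had 36.2 and 53.1 fold and 33.1 and 36.3 fold. The other 5 were the homologs of a GDSL-motif lipase, acyl activating enzymes 1 and 5, and the sterol pathway enzymes cycloartenol synthase 1 and sterol methyltransferase 1, each at 34.4 fold or less in both replicates. Outside the matches, the region of the phospholipase A homolog Glyma.11G036900 had 31.8 and 37.1 fold. Both *ACBP2* summits were off-centre, but on opposite sides of the peak in genome coordinates: at 67.2% and 68.3% for Glyma.06G131200 and at 32.7% and 28.5% for Glyma.04G233600. Gene strand was not analysed here.

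Transporters matched at 8 members (4.06%, against 3.90%), with median fold of 29.9 and 33.8. Besides the *ZTP29* and *TDT* homologs they included Glyma.05G142500, a homolog of *INT2*, which encodes an inositol transporter, with 36.7 and 46.0 fold. Protein synthesis and turnover matched at 7 members (3.55%, against 7.00%), first among them the F-box gene Glyma.07G190100 with 34.0 and 49.2 fold, followed by the translation factor eIF5A homolog Glyma.04G165500 with 36.2 and 36.7 fold and the DnaJ-type gene Glyma.16G035800 with 30.2 and 33.5 fold. In carbohydrate and cell wall enzymes, with 6 members (3.05%, against 5.56%), Glyma.07G172000, a homolog of *TPS6* of the trehalose-phosphate synthase family, had 32.6 and 41.8 fold, the glycosyl hydrolase gene Glyma.02G269400 33.2 and 33.9 fold and the cellulose synthase gene Glyma.06G316800 29.3 and 26.2 fold. The 5 photosynthesis and chloroplast members (2.54%, against 0.534%) included the plastid chaperone gene Glyma.12G166200, a homolog of *cpHsc70-2*, with 24.4 and 43.5 fold. The 4 cytoskeleton and cell division members (2.03%, against 3.63%) included the actin gene Glyma.05G000900 with 36.8 and 45.4 fold, and the kinesin genes Glyma.08G106400 and Glyma.14G011100 had 29.0 and 27.1 fold and 23.8 and 28.6 fold.

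Some of these regions were at related soybean genes. Among the 197 members outside the FAT list with an Arabidopsis homolog, 38 (19.3%) formed 19 pairs that shared the homolog, and the copies of 18 pairs lay on different chromosomes, as copies often do in the duplicated genome of soybean. How often linked genes of other regions share a homolog was not analysed here. The mean fold of the stronger copy exceeded that of the weaker by a median ratio of 1.27 and at most 1.56. The *CPISCA* homologs Glyma.08G142700 and Glyma.05G184700 had 44.4 and 57.4 fold and 34.3 and 58.4 fold in regions of 853 and 850 bp, and their summits lay at 42.0% and 41.9% of the replicate 1 peaks. The alpha/beta-hydrolase genes Glyma.08G178600 and Glyma.15G053900 had 41.0 and 51.1 fold and 42.8 and 47.2 fold. Neither copy was ahead in both replicates in either pair. The kelch repeat genes Glyma.13G360600 and Glyma.15G013300 had 24.9 and 60.7 fold and 33.4 and 48.1 fold, and again the order of the copies turned between replicates. The dirigent-like genes Glyma.04G124100 and Glyma.04G139800, on the same chromosome, had 40.02 and 42.6 fold and 34.5 and 40.7 fold. The *TOC132* homologs differed more, with 29.3 and 30.1 fold at Glyma.12G030400 against 38.6 and 52.1 at Glyma.11G105500, the first being weaker in both replicates. The most unequal pair was the pentatricopeptide repeat genes Glyma.09G237200 and Glyma.08G160200, with 33.8 and 61.2 fold against 26.7 and 34.2. How reads that map equally well to both copies were treated was not stated in the labels or methods, so values of near-identical copies may not be independent.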

How the data were processed

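ChIP-Seq peaks of 2 em stage embryo libraries, called against input, were analysed. The authors aligned reads (Bowtie 0.12.7 and MACS2 are named in the submitters' processing notes, MACS3 in the study's methods) and deposited 1 peak list per replicate, with a fold enrichment ratio, −log10 p-value, −log10 q-value and summit for each peak; the score column deposited by the authors was not used. For the alignment no build was named in the labels or methods, whereas the annotation used Wm82.a2.v1. Lists held 22982 and 20027 peaks. Total read numbers were not used, so library depth is unknown, and summit reads give the depth behind each value.

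Peaks were merged across replicates, and the strongest peak of each replicate gave fold and summit. Summit reads and background were solved from fold, (reads + 1)/(background + 1), and the Poisson −log10 p; a solution within 0.001 was found for 100% of peaks, and on simulated data 100% of 5000 peaks were recovered. Named genes were, outside the FAT list, the 15 strongest by mean rank, with or without a description, the 3 strongest of each functional group, the 5 strongest pairs sharing a homolog, and the regions next to the limits; others were singled out after their values were seen, and 1 of the 15 is not reported here. Members and lists were chosen with earlier results of these data known, and functional groups were trimmed after the descriptions were read. The comparisons were descriptive. Alternatives changed the fold limit, width limit, overlap, summit choice and replicates used. Sequence motifs were not analysed here. Software was Python 3.11.15, numpy 2.4.6, pandas 2.3.3, scipy 1.17.1 and matplotlib 3.10.9.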

Additional observations from a re-analysis of the deposited data

How the results depend on the processing

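Of 57 summary values recomputed under other settings, 39 stayed within their error (1.5 times for a count of regions, the 95% interval of a median or share, or 1 SD between replicates) and 18 did not. A fold limit of 15 gave 727 regions, a median summit distance of 9 bp, a median spacing of 247 kb and 84.2% of linked regions outside the FAT list. A fold limit of 30 gave 157 regions, a summit distance of 6 bp, summits 50.2 bp from the peak centre, a spacing of 1627 kb, a mean of 300.5 summit reads over the replicates' medians (228 as reported) and 66.7% outside the FAT list. Widths under 1000 bp and under 2000 bp placed summits 36.1 and 52 bp from the centre (43.5 bp as reported) and spaced regions by 459.7 and 331 kb. Taking the strongest 5% of each list gave a spacing of 307 kb. Spacing follows from the number of regions by construction. Regions called from 1 replicate alone numbered 484 to 637, with summits 43.5 to 47.2 bp from the centre, a spacing of 281 to 377 kb, 1.45 to 2.04% on chromosome 16, 164 to 260 summit reads and 79.5 to 82.8% outside the FAT list. A 50% reciprocal overlap kept 436 of the 439 members, and taking the summit of the highest −log10 p moved no summit value. No paired analysis was possible because the inputs that share replicate numbers with the ChIP libraries have no peak lists of their own. Limits are the 2 replicates, the unknown depth and the shortened gene tables.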

Other observations

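Outside the chromosomes, the assembly's scaffolds held 79 shared regions, and 0 of them reached 20 fold in both replicates, with highest values of 16.5 in replicate 1 and 20.6 in replicate 2. Among narrow shared regions on the chromosomes, 35 reached 20 fold in replicate 1 only and 149 in replicate 2 only.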
